A study of Rattus norvegicus with 4 samples.

Results

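Immediate early genes were described here as a group of 8 genes, Fos, Fosb, Junb, Egr1, Ier2, Nr4a1, Dusp1 and Btg2, taken by their symbols from the 32623 genes of the count matrix. All 8 had at least 1 unique molecular identifier (UMI), the tag that counts 1 captured RNA molecule, in each of the 4 capture areas. The identifiers in the matrix were ENSRNOG00000008015 for Fos, ENSRNOG00000046667 for Fosb, ENSRNOG00000042838 for Junb, ENSRNOG00000019422 for Egr1, ENSRNOG00000054344 for Ier2, ENSRNOG00000007607 for Nr4a1, ENSRNOG00000003977 for Dusp1 and ENSRNOG00000003300 for Btg2.

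The measurements were Visium spatial transcriptomes of trigeminal root, semilunar (trigeminal) ganglion and proximal branches of wild type, adult male Sprague–Dawley rats. TN1, TN2 and TN3 each held the diseased side of a separate rat whose trigeminal root had been compressed on that side to model trigeminal neuralgia (TN), and HC, the healthy control, was 1 area that held tissue of 2 animals together. The series' design takes HC from the healthy side of 2 of the same 3 rats, whereas the methods describe sham-operated controls, so whether TN and HC tissue shared animals is not settled by the sources used here. With 1 HC area, the condition and the capture area cannot be told apart, and HC gives no spread of its own. Tissue was frozen without fixation, and each spot covers several cells.

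Immediate early genes are switched on within minutes of a stimulus without new protein being made, mainly when the ERK kinase, calcium and cAMP pathways activate the promoter-bound factors SRF with its Elk partners and CREB. Their products either drive the next wave of transcription (Fos, Fosb, Junb, Egr1, Nr4a1) or end the signal (Dusp1, Btg2). In sensory ganglia they are used as marks of recent neuronal activity and injury, and because surgery and dissection also induce them, an expressed immediate early gene does not by itself say when or by what it was induced.

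The promoter letters were searched for motifs known to be bound by such factors. Of the 8 genes, 7 were matched in the RefSeq promoter table of build GRCr8, and Fos was not in it. Promoters were the 250 bases before the gene's start, and both strands were searched. The cAMP response element TGACGTCA was in 3 of the 7 (Ier2, Dusp1 and Btg2), against 1.59% of all 33469 promoters of that length. Its core TGACG was in 6 of the 7 (18.2% of all), the GC box GGGCGG in 3 of the 7 (30.5% of all), and the CArG box, the site of SRF, in Egr1 alone of the 7 (1.5% of all). A match to letters is a description and not a bound site. The 4 genes on which the comparisons below mostly turn are shown 5′ to 3′, on the plus strand, with every TGACG or its reverse complement in capitals, at chr19:40080876-40081125 (Junb), chr19:40399123-40399372 (Ier2), chr7:134259888-134260137 (Nr4a1) and chr10:17184603-17184852 (Dusp1).
Junb: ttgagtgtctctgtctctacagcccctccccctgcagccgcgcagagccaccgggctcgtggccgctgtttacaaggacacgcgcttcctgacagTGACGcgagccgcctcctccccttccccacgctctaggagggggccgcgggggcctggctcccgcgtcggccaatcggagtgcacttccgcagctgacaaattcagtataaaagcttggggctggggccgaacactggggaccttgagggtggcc
Ier2: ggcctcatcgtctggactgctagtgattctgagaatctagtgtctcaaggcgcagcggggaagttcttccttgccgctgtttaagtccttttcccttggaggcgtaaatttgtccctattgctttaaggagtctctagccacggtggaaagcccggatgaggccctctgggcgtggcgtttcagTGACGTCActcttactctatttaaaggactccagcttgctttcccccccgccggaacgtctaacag
Nr4a1: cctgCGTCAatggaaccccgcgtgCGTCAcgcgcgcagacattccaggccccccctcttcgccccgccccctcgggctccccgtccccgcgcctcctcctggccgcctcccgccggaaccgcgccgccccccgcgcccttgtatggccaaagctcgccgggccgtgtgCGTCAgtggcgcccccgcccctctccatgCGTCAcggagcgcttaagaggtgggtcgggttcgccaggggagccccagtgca
Dusp1: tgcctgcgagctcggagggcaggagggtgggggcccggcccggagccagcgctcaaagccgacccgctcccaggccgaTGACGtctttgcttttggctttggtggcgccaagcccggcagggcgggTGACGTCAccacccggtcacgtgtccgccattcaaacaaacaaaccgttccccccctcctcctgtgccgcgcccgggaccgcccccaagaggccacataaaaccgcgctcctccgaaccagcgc
Ier2 and Dusp1 each carried 1 full cAMP response element, which reads the same on both strands. Nr4a1 carried 4 separate copies of the core in the reverse direction and 3 GC boxes, and Junb carried 1 core.

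Of the 6773 spots, 2013 lay in HC and 1587, 1256 and 1917 in TN1, TN2 and TN3. Areas held 23546025 to 41335930 UMIs. The median spot of HC held 14616 UMIs, against 9487, 30808 and 14480 in TN1, TN2 and TN3, so TN2 was the deepest per spot, and 2337 of 3573 spot barcodes occurred in 2 or more areas, told apart by their suffix. Mitochondrial genes took 5.90% of the UMIs of HC and 11.6%, 7.81% and 7.50% of those of TN1, TN2 and TN3. Levels are given as CPM, the UMIs of a gene in every 1000000 UMIs of an area or of a region in it, and as UMIs were not scaled by transcript length, an order between genes is an order of UMI numbers. Spots were clustered without the 8 genes. The ganglion region joined both clusters whose own highest-scoring marker list was that of sensory neurons. Further regions named by their markers were peripheral myelin, central myelin, connective tissue, blood and bone, astrocyte and central neuron, and clusters 3 and 4 had no marker list clearly ahead and kept their numbers. Genes that led cluster 3 included Sfrp5, Mrap, Prx, Scn10a and Nefh, and cluster 4 was led by Gpr83, Thbs2, Col18a1, Cthrc1 and Vim.

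The 8 genes together gave 26545 UMIs, 195 CPM, with a median of 3 in a spot, and 79.8% of the spots had at least 1. They fell into 3 tiers. Nr4a1, an orphan nuclear receptor that binds DNA as a transcription factor, had 9473 UMIs and was seen in 53.6% of spots, followed by Dusp1, a phosphatase that inactivates MAP kinases, with 5343 UMIs in 43.2%. Ier2, a nuclear protein that acts on transcription, had 3884 UMIs in 34.1% of spots, Junb, a Jun-family subunit of the AP-1 factor, 3331 in 31.1%, Egr1, a zinc finger transcription factor, 2210 in 22.1%, and Btg2, an antiproliferative protein that recruits the RNA deadenylation machinery, 1940 in 21.7%. The classic activity marks were near the limit of detection. Fos, which pairs with Jun proteins in AP-1, had 239 UMIs in 3.25% of spots and its relative Fosb 125 in 1.70%, with no more than 3 UMIs of either gene in any spot.

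Over all spots of an area, Nr4a1 lay at 61.2 CPM in TN1, 78.9 in TN2 and 106 in TN3 and at 37.8 in HC. Junb lay at 15.2, 37.4 and 30.9 CPM in TN1, TN2 and TN3 and at 12.7 in HC. Dusp1 lay at 64.8, 34.6 and 37.0 CPM and at 31.0 in HC. All 3 TN areas were above HC for these 3 genes, but TN1 was the lowest TN area for Nr4a1 and Junb and by far the highest for Dusp1. Ier2 lay at 16.4, 39.1 and 34.5 CPM in TN1, TN2 and TN3 and at 21.0 in HC. Egr1 lay at 12.4, 22.1 and 15.3 CPM and at 13.8 in HC. Btg2 lay at 15.4, 13.5 and 13.6 CPM and at 14.9 in HC. HC lay within the range of the TN areas for these 3 genes, and Btg2 was nearly level across the 4 areas. Fos lay at 0.637, 2.94 and 1.89 CPM in TN1, TN2 and TN3 and at 1.19 in HC, within the TN range. Fosb lay at 0.595, 0.954 and 0.496 CPM and at 1.40 in HC, above every TN area, on 14, 37, 16 and 58 UMIs.

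**Figure D1:**
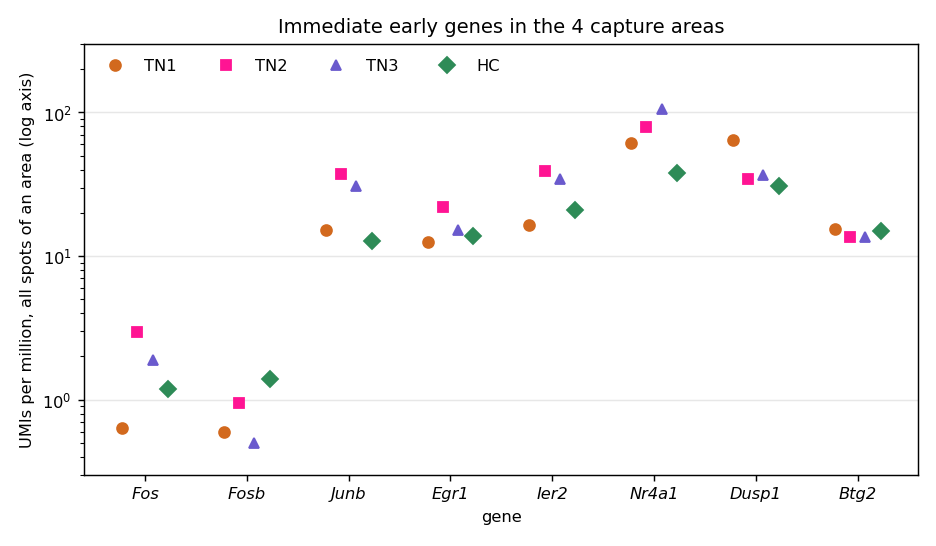
Level of each of the 8 genes over all spots of each capture area, in CPM on a log axis, with 1 point per area and no error bars. Nr4a1 and Junb are lowest in HC and Fosb is highest there, Dusp1 stands out in TN1 at 64.8, and Btg2 spans only 13.5 to 15.4.

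Fitted over all spots, none of the 8 genes differed between TN and HC past an adjusted p of 0.05 by edgeR's quasi-likelihood test on the summed counts. Nr4a1 was 1.04 ± 0.38 higher in TN on the log2 scale (SE, 3 TN areas against 1 HC area, unadjusted p = 0.0416, adjusted p = 0.556), Junb 1.04 ± 0.55 (adjusted p = 0.564), Dusp1 0.47 ± 0.44 (adjusted p = 0.692) and Fosb -1.06 ± 0.53 (adjusted p = 0.564). The others lay between -0.15 ± 0.26 for Btg2 and 0.52 ± 0.85 for Fos. Of the 8, 3 had all TN areas above HC and 1 had all below, against 34.9% and 25.1% of the 14902 genes tested. No gene at all was called (0% of those tested, 1271 at an unadjusted p under 0.05), while DESeq2 called 144 genes and none of the 8. Without TN1 edgeR called 2171 genes, Junb (1.33, adjusted p = 0.0231) and Nr4a1 (1.20, adjusted p = 0.0418) among them. The areas also held different tissue: summed markers of connective tissue were 1974, 5777 and 5583 CPM in TN1, TN2 and TN3 and 1450 in HC (5 of 6 above HC in every TN area), and those of macrophages 359, 788, 1134 and 247 CPM (6 of 6). The part of this make-up in the values over all spots was not tested, and in any sum over spots fewer cells of a type and less RNA per cell cannot be told apart.

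By region the genes separated into patterns. Nr4a1 was highest in the peripheral myelin region in TN1 and TN3, at 149 and 156 CPM, in cluster 4 in TN2, at 134 CPM, and in cluster 3 in HC, at 63.3 CPM. Cluster 4 of TN3 held 137 CPM. In the central myelin region it lay at 22.4, 19.0 and 23.5 CPM in TN1, TN2 and TN3 and at 12.04 in HC, and in the central neuron region at 15.7 in TN1 and 22.9 in TN2. Tissue of the central nervous system was thus the lowest place for Nr4a1 in every area, with a span of 9.47-fold between regions in TN1 and 5.26-fold in HC. Spot by spot, Spearman's rho of the Nr4a1 share with that of the 6 peripheral myelin markers was 0.483 over 1587 spots in TN1, 0.633 over 1256 in TN2, 0.488 over 1917 in TN3 and 0.386 over 2013 in HC. For the connective tissue markers it was 0.468, 0.429 and 0.383 in the TN areas and 0.091 in HC, and for the sensory neuron markers 0.129, 0.225, 0.047 and 0.327 in TN1, TN2, TN3 and HC. These are descriptions, since spots of an area share a library and differ in depth.

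Junb, Ier2 and Egr1 were highest in the connective tissue region of both areas that held it, TN2 (109 spots) and TN3 (50 spots). Junb lay there at 57.8 and 58.3 CPM, Ier2 at 58.5 and 72.1 and Egr1 at 44.4 and 48.1. Cluster 4 came next for Ier2, with 51.7 and 49.1 CPM in TN2 and TN3, and held 51.4 and 38.1 CPM of Junb, close to the 40.1 of the astrocyte region of TN3. In the ganglion of the same areas Junb was at 27.2 and 17.1 CPM, below the connective tissue in both. TN1 and HC had too few connective tissue spots to give a level.

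Dusp1 was not highest in connective tissue in TN2 or TN3. Its highest region in TN1 was blood and bone, at 85.7 CPM, and the central neuron region of the same area was level with it at 85.6. In TN2 it was highest in the central neuron region, at 45.5 CPM. In TN3 and HC it was highest in blood and bone, at 56.3 and 47.6 CPM. It was lowest in peripheral myelin in TN1 (49.1) and TN3 (24.3), where Nr4a1 peaked, and lowest in central myelin in TN2 (21.7) and HC (28.3). Ier2 and Egr1 shared this order in HC, with their highest level in blood and bone (29.3 and 23.5 CPM) and their lowest in central myelin (17.5 and 8.74). Btg2 had no region that was highest in every area: it reached 31.3 CPM in the blood and bone of HC and 22.9 in that of TN1, but 10.6 and 11.0 in that of TN2 and TN3, where connective tissue was highest at 16.8 and 18.2.

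Fos was sparse in the ganglion, which gave 0.212, 1.59 and 0.578 CPM in TN1, TN2 and TN3 and 0.611 in HC, on 2, 25, 4 and 16 UMIs. The astrocyte region gave 5.22 and 3.69 CPM in TN2 and TN3, and blood and bone gave 0, 7.93, 3.31 and 5.01 CPM in TN1, TN2, TN3 and HC. Most of these values rest on fewer than 20 UMIs, so their order is uncertain. Fosb had 0 UMIs in the central myelin region of all 3 TN areas, among 3861276 UMIs, and 14 in that of HC (2.72 CPM). The HC value was 3.50-fold above the 0.777 CPM that a count of 0 allows in TN (3 counts over the 3 TN areas together). That fold is not a lower bound, since it leaves out the counting error of the 14 UMIs of HC, which has no replicate. Without the filter on low counts edgeR put Fosb there at -2.06 in TN against HC on the log2 scale, without passing the test.

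**Figure D2:**
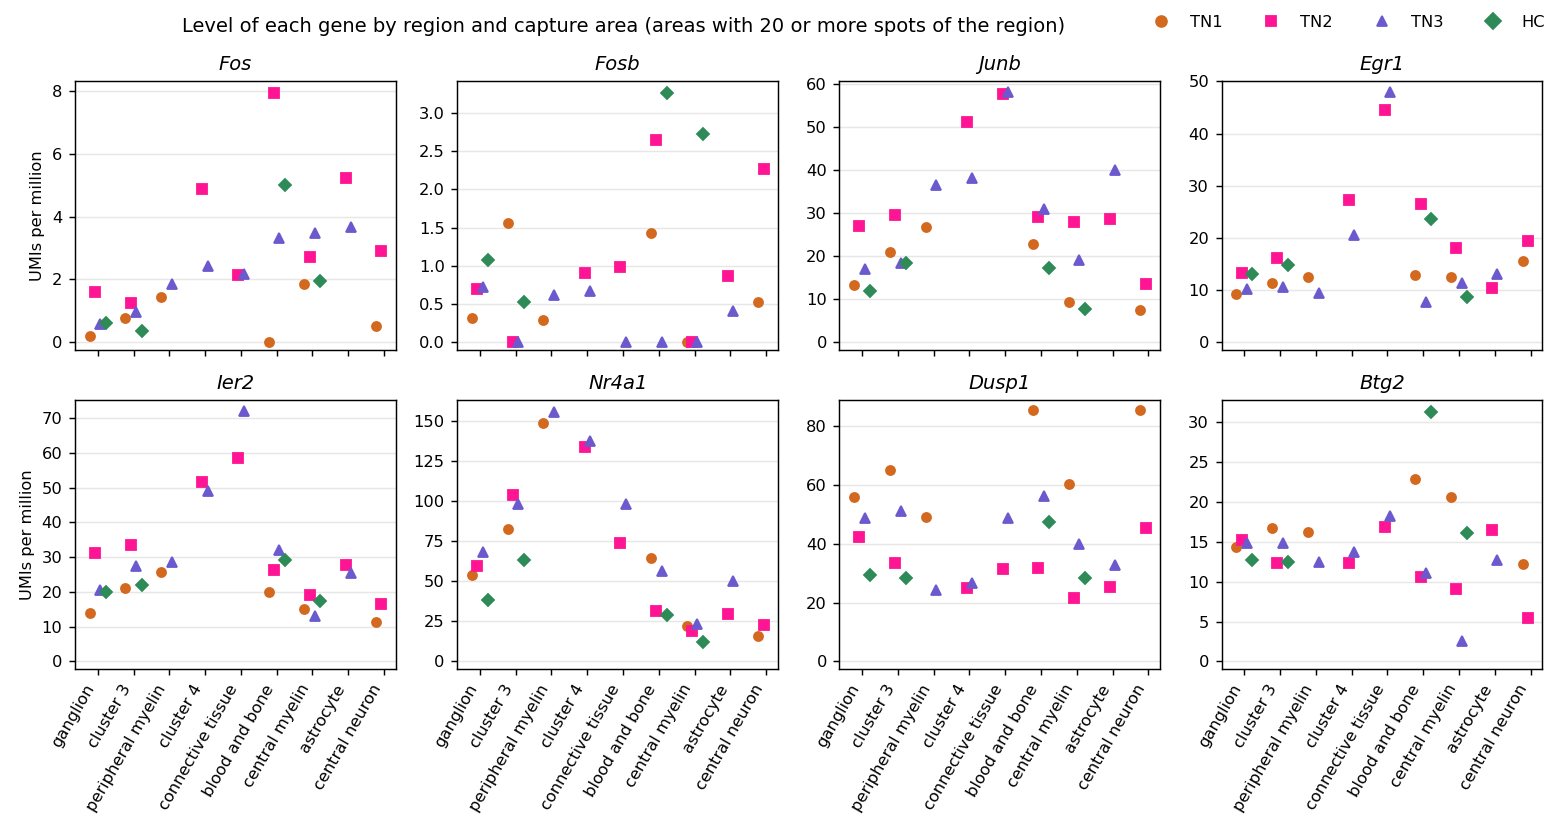
Level of each gene in CPM (linear axis) for each region with 20 or more spots in an area, 1 point per area. Nr4a1 peaks in peripheral myelin in TN1 and TN3, in cluster 4 in TN2 and in cluster 3 in HC, Junb, Ier2 and Egr1 peak in connective tissue in TN2 and TN3, and Dusp1 is lowest in peripheral myelin in TN1 and TN3. HC has no point in peripheral myelin or cluster 4.

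Regions present in every area were then compared with the ganglion within areas, with the area as a block in edgeR. Because the 8 genes took no part in the clustering, these tests do not return the clustering itself, although genes that vary with them did take part. In the central myelin region Nr4a1 and Fos were past the adjusted threshold among the 7 genes tested, Fos with a limit given below. Nr4a1 averaged 19.2 ± 5.17 CPM against 55.1 ± 12.8 in the ganglion (SD, n = 4 areas) and was lower in 4 of 4 areas, a change of -1.29 ± 0.13 on the log2 scale (adjusted p = 8.83e-06). Fos averaged 2.50 ± 0.756 against 0.749 ± 0.592 CPM and was higher in 4 of 4 areas, by 1.68 ± 0.40 (adjusted p = 0.00372), on only 67 UMIs in all. Fos passed the filter on low counts only through its central myelin sums (3, 3, 4 and 10 UMIs in TN1, TN2, TN3 and HC). Its test was thus not free of the difference that it called, and the Fos values are a description. Junb, Egr1, Ier2, Dusp1 and Btg2 had adjusted p-values from 0.367 to 0.994. The 1 of 7 called lower, Nr4a1, compares with 28.5% of the 11062 genes tested. Of all genes 28.3% were called higher, and because of its limit Fos is not read against that share. The call of Nr4a1 held under all 15 alternatives (adjusted p up to 2.66e-04). Fos gave a value under 11 alternatives (up to 0.0201). Apart from the setting without the filter these kept the same filter, so they lend its call no support. Alongside, 6 of 6 peripheral myelin markers and 7 of 8 heat shock genes tested were lower in this region, Hspb1 at 298 against 1102 CPM, and 5 of 6 macrophage markers were higher. Their part in the values of Nr4a1 and Fos was not tested.

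In the blood and bone region 5 of 6 genes were called higher than in the ganglion, Junb by 0.80 ± 0.20 (adjusted p = 0.00491), Btg2 by 0.82 ± 0.27 (0.0220), Egr1 by 0.80 ± 0.24 (0.0147), Ier2 by 0.65 ± 0.19 (0.0133) and Dusp1 by 0.62 ± 0.16 (0.00540), against 17.9% of 10890 genes called higher and 21.1% called lower. Nr4a1 did not pass the test (-0.05 ± 0.16, adjusted p = 0.845), and none was called lower. Alongside, 9 of 9 blood and bone, 8 of 8 central myelin, 6 of 6 astrocyte, 6 of 6 macrophage, 5 of 6 connective tissue and 4 of 4 endothelium markers tested were called higher in this region and 10 of 10 sensory neuron markers lower, and their part in the values of the 8 genes was not tested. The blood and bone list named this region and the sensory neuron list the ganglion, so the calls of these lists follow from the naming. Fos and Fosb were removed by the filter on low counts here. Without that filter Fos, with 0, 3, 3 and 20 UMIs in the blood and bone of TN1, TN2, TN3 and HC, was 2.35 ± 0.50 above the ganglion (adjusted p = 3.15e-05), and Fosb was 1.27 above it without passing the test (adjusted p = 0.0892). In plain CPM the gap was smaller: Junb averaged 25.0 ± 6.21 against 17.3 ± 6.89 (SD, n = 4 areas) and was higher in 4 of 4 areas, and for the other 4 at least 1 area went the other way. The TMM scaling of edgeR set the median of all genes at -0.04, against -0.25 by library totals alone, and without it Egr1, Ier2, Dusp1 and Btg2 were no longer called (adjusted p from 0.0566 to 0.0877) and Junb was (0.0239), while all genes split into 1406 higher and 3528 lower instead of 1948 and 2299. Without HC the calls of these 4 were also lost (adjusted p from 0.0673 to 0.617), with Btg2 falling to 0.27. With regions drawn from spot marker scores all 5 calls were lost (adjusted p from 0.0744 to 0.459). Btg2 was also lost in DESeq2 (0.140), Btg2 and Dusp1 without TN1 (0.0726 and 0.0539), Ier2 without TN3 (0.0916) and Egr1, Ier2 and Btg2 with 8 clusters (0.0511, 0.117 and 0.100). Of 14 alternatives the call was thus lost in 6 for Btg2, in 5 for Ier2, in 4 each for Egr1 and Dusp1 and in 1 for Junb. In the central myelin comparison the same median was 0.01 with TMM and -0.22 without, and all genes split into 2294 higher and 4239 lower without it instead of 3135 and 3151.

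Cluster 3 joined ganglion and nerve features, with 6 of 6 peripheral myelin markers higher than in the ganglion and 8 of 10 sensory neuron markers lower. Peripheral myelin was the list on which cluster 3 scored highest, and the sensory neuron list named the ganglion, so these calls follow in part from the scoring. Nr4a1 lay at 83.0, 104 and 98.6 CPM in TN1, TN2 and TN3 and at 63.3 in HC, above the ganglion in 4 of 4 areas, by 0.70 ± 0.07 on the log2 scale (adjusted p = 8.55e-06). That call held under all alternatives. Junb (21.9 ± 5.36 against 17.3 ± 6.89 CPM, 0.46 ± 0.13, adjusted p = 0.0196) and Ier2 (26.0 ± 5.70 against 21.4 ± 7.14 CPM, 0.34 ± 0.12, adjusted p = 0.0418) were higher in 4 of 4 areas too. Both calls were lost without TN1 (0.39 with adjusted p = 0.0924, and 0.27 with 0.174), without HC (0.199 and 0.0617) and in DESeq2 (0.0587 and 0.106). Ier2 was also lost without TN3 (0.196), without the filter on low counts (0.0857) and without TMM (0.0717), in 6 of 11 alternatives in all, against 3 of 11 for Junb. The 3 of 6 genes called higher compare with 12% of 10939 genes, and none of the 6 was called lower against 12.7%. Dusp1 and Btg2 were level with the ganglion, at 0.07 ± 0.09 and 0.06 ± 0.14. Across the comparisons with the ganglion Nr4a1 was lower in central myelin, where 6 of 6 peripheral myelin and 4 of 6 connective tissue markers were lower, and higher in cluster 3, where 6 of 6 of each were higher. In blood and bone Nr4a1 was not called, while 0 of 6 peripheral myelin markers were called and most connective tissue markers were called higher. The part of these markers in the values of Nr4a1 was not tested.

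Within the TN ganglion, spots fell into 2 clusters. A ganglion injury cluster had Csrp3, Gal and Gap43, genes of nerve injury and regeneration, among its leading genes, and held 54, 326 and 69 spots in TN1, TN2 and TN3 and 0 in HC. The ganglion neuron cluster was led by Nefl, Necab1 and Tac1 and held 148, 40 and 97 spots and all 672 ganglion spots of HC. Nr4a1 lay at 68.4 CPM in the injury cluster against 48.8 in the neuron cluster in TN1, at 64.7 against 32.9 in TN2 and at 88.5 against 57.0 in TN3. It was higher in 3 of 3 areas, by 0.68 ± 0.10 on the log2 scale (adjusted p = 3.96e-05), under all alternatives as well. Btg2 was higher by 0.66 ± 0.18 (18.0 ± 2.83 against 11.2 ± 2.40 CPM, adjusted p = 0.0101) and Dusp1 by 0.46 ± 0.12 (60.3 ± 15.9 against 43.6 ± 5.10 CPM, adjusted p = 0.00567), each in 3 of 3 areas. Junb was higher by 0.53 ± 0.17 (adjusted p = 0.0266), with plain CPM of 12.8 against 13.6 in TN1, 29.1 against 16.3 in TN2 and 22.8 against 13.8 in TN3. Ier2 (0.41 ± 0.16, adjusted p = 0.0673) and Egr1 (0.19 ± 0.20, adjusted p = 0.528) did not pass.

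The 4 of 6 genes called higher in the injury cluster compare with 12.9% of 10065 genes, and the 0 of 6 called lower with 12.5%. The calls of Btg2, Dusp1 and Junb were less firm than that of Nr4a1: DESeq2 gave adjusted p-values of 0.116, 0.0797 and 0.246, and leaving out TN3 gave 0.105, 0.0635 and 0.146. Without TN2 Btg2 (0.0903) and Junb (0.354) were also lost, and without TN1 Ier2 was called (0.59, adjusted p = 0.00466). In the same comparison 8 of 14 other immediate early transcription factors were called higher and 0 lower, among them Atf3, a bZIP factor of the injury response (319 against 113 CPM, 1.54 ± 0.09), Jun, the AP-1 partner of Fos proteins (285 against 167 CPM, 0.79 ± 0.08), and Ier5 (37.1 against 17.0 CPM, 1.11 ± 0.13). Of the heat shock genes, which mark protein stress, 1 of 8 was higher (Hspb1) and 3 were lower (Hsph1, Bag3 and Hspa8). The injury cluster also had 6 of 6 peripheral myelin, 6 of 6 connective tissue and 5 of 5 macrophage markers called higher and 8 of 10 sensory neuron markers called lower, and their part in the differences of the 8 genes was not tested. Only the 8 genes were left out of the clustering, and the injury cluster was told apart by its injury genes. The calls of other genes here may thus in part return the clusters themselves.

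TN and HC were compared in each region they shared. In the ganglion region (202, 366 and 166 spots in TN1, TN2 and TN3 and 672 in HC) Nr4a1 lay at 54.2, 59.9 and 68.4 CPM in TN1, TN2 and TN3 and at 38.1 in HC. Dusp1 lay at 56.0, 42.5 and 49.0 CPM and at 29.5 in HC. Junb lay at 13.4, 27.2 and 17.1 CPM and at 11.8 in HC. Every TN area was above HC for these genes, and Btg2 was too by a small margin, at 14.3, 15.2 and 14.9 CPM against 12.7. Ier2 lay at 13.9, 31.1 and 20.7 CPM against 20.1 in HC and Egr1 at 9.33, 13.2 and 10.3 against 13.1, with HC inside the TN range. Fosb was below HC in every TN area, at 0.318, 0.701 and 0.723 CPM against 1.07, on 3, 11, 5 and 28 UMIs.

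None of these passed the adjusted threshold in edgeR. Dusp1 was 0.66 ± 0.23 higher in TN on the log2 scale (49.1 ± 6.76 CPM, SD, n = 3 areas, against 29.5, unadjusted p = 0.0287, adjusted p = 0.540), Nr4a1 0.61 ± 0.22 (60.8 ± 7.14 CPM against 38.1, unadjusted p = 0.0303, adjusted p = 0.540) and Junb 0.63 ± 0.41 (adjusted p = 0.629). The other values were 0.34 ± 0.86 for Fos, 0.15 ± 0.24 for Btg2, 0.06 ± 0.42 for Ier2, -0.32 ± 0.29 for Egr1 and -0.80 ± 0.62 for Fosb. Of the 8 genes 4 had all TN areas above HC and 1 had all below, against 33.1% and 24.4% of the 12835 genes tested. No gene was called by edgeR (0%), 1178 had an unadjusted p under 0.05, and DESeq2 called 119 genes, none of the 8. Without TN1 edgeR called 1090 genes, again none of the 8. With the ganglion neuron cluster alone in place of the whole ganglion, Nr4a1 lay at 48.8, 32.9 and 57.0 CPM in TN1, TN2 and TN3 against 38.1 in HC, and its fold fell from 0.61 to 0.25 ± 0.28. Dusp1 stayed above HC in all 3 areas there, at 49.4, 41.3 and 40.0 CPM against 29.5 (0.52 ± 0.20). In the ganglion, macrophage markers summed to 229, 562 and 379 CPM in TN1, TN2 and TN3 against 138 in HC (6 of 6 above HC in every TN area) and connective tissue markers to 1083, 3340 and 2526 against 1081 (5 of 6), and their part was not tested.

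**Figure D3:**
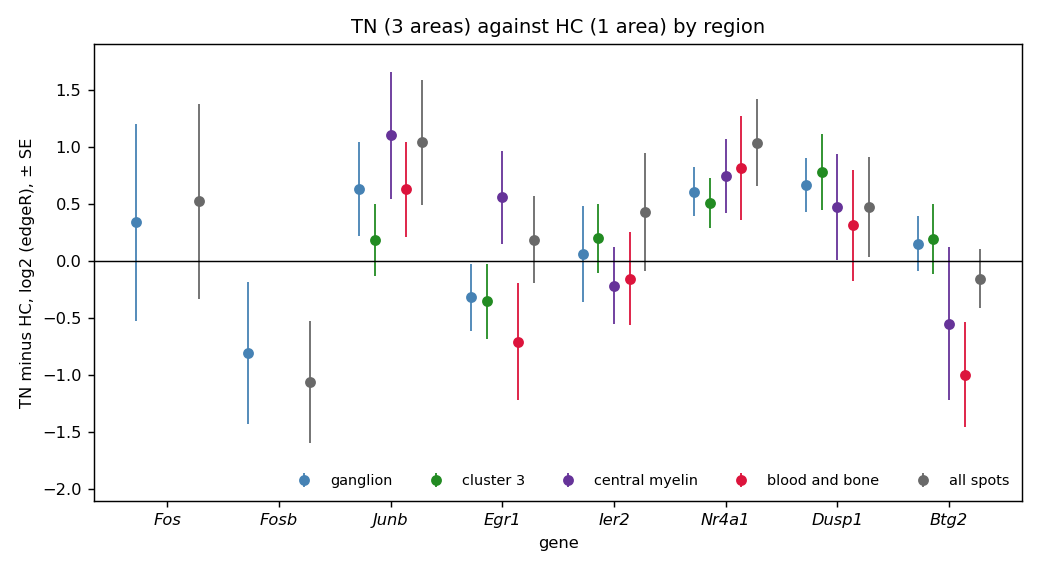
Difference between TN (3 areas) and HC (1 area) for each gene on the log2 scale, as fitted by edgeR, with bars of 1 SE, in 4 regions and over all spots. Nr4a1 and Junb lie above 0 in all 5 comparisons and Dusp1 too, Fosb lies below 0 in both where it was tested, and none passes an adjusted p of 0.05.

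The other shared regions gave no call among the 8 genes either, and Fos and Fosb were removed by the filter on low counts in them. In central myelin (278, 125, 225 and 434 spots in TN1, TN2, TN3 and HC) Junb lay at 9.34, 28.0 and 19.1 CPM in TN1, TN2 and TN3 and at 7.77 in HC (1.10 ± 0.55). Nr4a1 was 0.75 ± 0.32 and Egr1 0.56 ± 0.41 higher in TN, with Egr1 at 12.5, 18.1 and 11.3 CPM against 8.74, while Btg2 ranged from 2.61 CPM in TN3 to 20.6 in TN1 around 16.1 in HC (-0.55 ± 0.67). All 6 adjusted p-values were 0.9998. Here 3 of 6 genes had all TN areas above HC and 0 below, against 25.6% and 15.7% of 9021 genes, and edgeR called no gene (0%, 280 at an unadjusted p under 0.05), DESeq2 4, none of the 6, and edgeR without TN3 called 10.

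In cluster 3 (169, 30, 270 and 373 spots) Dusp1 lay at 65.1, 33.4 and 51.1 CPM in TN1, TN2 and TN3 and at 28.6 in HC (0.78 ± 0.33, adjusted p = 0.631) and Nr4a1 was 0.51 ± 0.22 higher (adjusted p = 0.640). All TN areas were above HC for 3 of 6 genes, Junb by the narrowest margin (18.4 CPM in TN3 against 18.3), and below it for 0, against 29.2% and 21.3% of 10797 genes. Across all genes 0.0463% were called, which were 5 genes with Atf3 among them, and 484 without TN1, 16 without TN3 and 0 without TN2. In blood and bone (97, 63, 188 and 517 spots) Nr4a1 lay at 64.3, 31.7 and 56.3 CPM and at 29.0 in HC (0.81 ± 0.45). Btg2 went the other way, at 22.9, 10.6 and 11.0 CPM against 31.3 in HC (-0.99 ± 0.46, unadjusted p = 0.0520, adjusted p = 0.99976). There 2 of 6 genes were above HC in all TN areas and 1 below, against 21.2% and 20.2% of 8322 genes, of which 0.0360% or 3 genes were called, and 397 without TN1, 38 without TN2 and 50 without TN3. The markers of blood and bone themselves summed to 5451, 1348 and 3088 CPM in TN1, TN2 and TN3 and to 4011 in HC, so that region did not hold the same mix in each area, and the part of this in the value of Btg2 was not tested.

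The share of spots with a UMI depends on depth, so it was also taken at 1 fixed depth. Nr4a1 was detected in 86.1%, 87.7% and 91.0% of the ganglion spots of TN1, TN2 and TN3 and in 71.6% of those of HC (95% exact binomial intervals 80.6 to 90.6, 83.9 to 90.9, 85.5 to 94.9 and 68.0 to 75.0). Thinned to 2000 UMIs per spot, these shares were 10.9%, 13.4% and 10.2% against 8.04% (6.95 to 16.0, 10.1 to 17.3, 6.08 to 15.9 and 6.09 to 10.4). All 3 TN shares were above that of HC at both depths, but at the fixed depth the interval of every TN area overlaps that of HC. Dusp1, thinned likewise, was detected in 10.9%, 8.20% and 10.2% of TN ganglion spots and in 5.65% of those of HC. Its interval in every TN area overlaps that of HC too. Junb, at the fixed depth, was detected in 1.485%, 5.464% and 2.41% of ganglion spots in TN1, TN2 and TN3 and in 2.679% in HC. Btg2 was detected in 2.97%, 4.372% and 2.41% against 2.976% in HC. For Junb and Btg2 only TN2 was thus above HC at that depth. Egr1 was detected in 0.495%, 1.093% and 0.602% of ganglion spots in TN1, TN2 and TN3 and in 3.125% in HC. It was thus below HC in every TN area, with intervals that overlap that of HC. Ier2 was detected in 1.485%, 5.464% and 5.422% against 3.72% in HC, which lay inside the TN range. Spots are not replicates, and the intervals cover counting error only.

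The 8 genes were set beside related lists in the ganglion. Of 21 other immediate early transcription factors 16 could be tested, and 12 of them had all TN areas above HC and 1 below. Of all 12835 genes tested, 33.1% had all TN areas above HC and 24.4% below. The median of the 16 was 1.05 on the log2 scale, against 0.24 for the 8 genes and 0.03 for all genes tested. Atf3 lay at 143, 335 and 168 CPM in TN1, TN2 and TN3 and at 5.19 in HC (5.27 ± 0.65, adjusted p = 0.230). Fosl1, a Fos-family AP-1 subunit, lay at 0.424, 3.82 and 4.19 CPM and at 0.115 in HC, and Klf2, a Krüppel-like factor, at 0.954, 0.319 and 0.145 CPM with 0 UMIs in the HC ganglion, so no fold is given for either. Npas4, a factor induced by neuronal activity, had no UMI in any area, but Hsp90aa1, a chaperone gene that most cells use, was also at 0 UMIs, so a 0 says only that no UMI was assigned to that gene.

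The counts of each further list stand beside the same shares of all genes, 33.1% above and 24.4% below. Neuronal activity effectors, genes such as Bdnf and Vgf that act on synapses and excitability, had 5 of 8 above HC in all TN areas and 0 below (median 0.48). Vgf, a neuropeptide precursor, lay at 124, 300 and 142 CPM in TN1, TN2 and TN3 and at 36.6 in HC (2.29 ± 0.56), Bdnf, a neurotrophin, at 21.7, 33.0 and 21.4 against 16.6 (0.54 ± 0.31) and Gem, a small GTPase, at 2.44, 3.63 and 3.18 against 2.06 (0.49 ± 0.44). Feedback regulators, the class of Dusp1 and Btg2, had 8 of 16 above and 1 below (median 0.36). Gadd45g, a stress response gene, lay at 76.4, 105 and 60.6 CPM against 31.0 (1.31 ± 0.33), Zfp36l1, which destabilises AU-rich transcripts, at 10.1, 20.1 and 12.3 against 5.46 (1.29 ± 0.45), and Dusp6, an ERK phosphatase, at 12.3, 23.7 and 17.9 against 8.55 (0.997 ± 0.40). Upstream kinases and factors had 5 of 10 above and 2 below (median 0.24), led by the cAMP-responsive factor Crem at 38.0, 49.0 and 42.3 CPM against 21.6 (0.93 ± 0.22), the ETS factor Elk3 (0.75 ± 0.36) and the CREB relative Atf1 (0.63 ± 0.33). Heat shock genes had 4 of 8 above and 3 below (median 0.15), led by Hspe1 (0.81 ± 0.42), Hspa8 (0.73 ± 0.34) and Hspb1 (0.58 ± 0.31).

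No gene of any of these lists was called by edgeR in the ganglion. Its unadjusted p was under 0.05 for 2 of the 8 genes, 6 of 16 other transcription factors, 1 of 8 effectors and 5 of 16 feedback regulators. It was so for 1 of 10 upstream genes and 0 of 8 heat shock genes, beside 1178 of all 12835 genes tested. DESeq2 called 2 of the other transcription factors (Atf3 and Jun), 1 effector (Vgf) and 1 feedback regulator (Gadd45g), all higher in TN, and none of the other lists. Over all spots the medians were 0.45 for the 8 genes, 1.13 for the other transcription factors, 0.83 for effectors, 0.62 for feedback regulators, 0.25 for upstream genes and -0.07 for heat shock genes, against 0.06 for all genes.

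**Figure D4:**
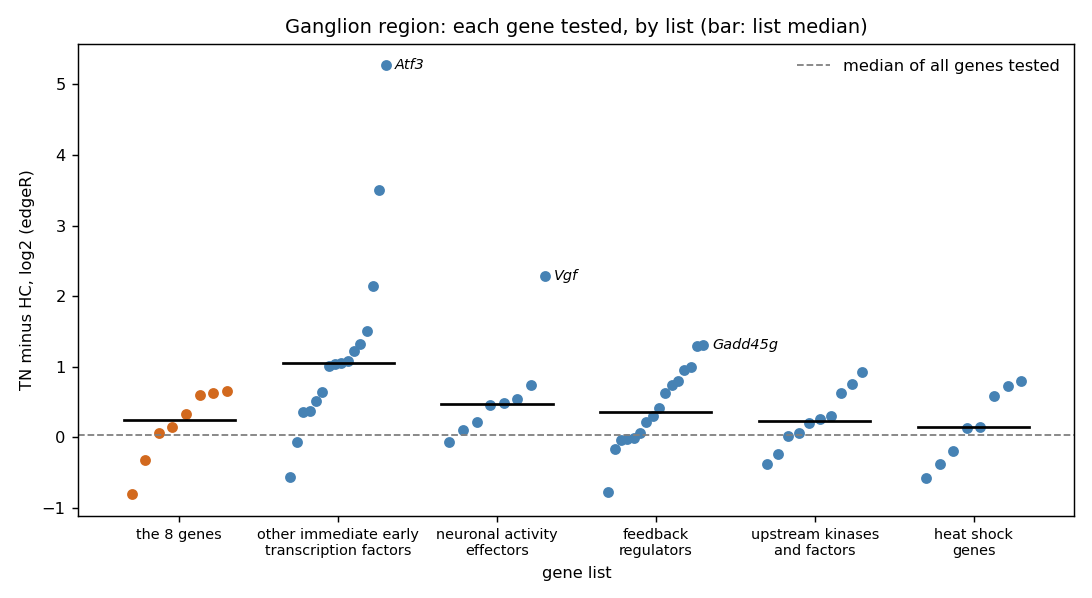
Difference between TN and HC in the ganglion region on the log2 scale, 1 point per gene tested, in 6 gene lists, with the list median as a bar and the median of all genes tested as a dashed line. The 8 genes lie between -0.80 and 0.66 with a median of 0.24, and the other immediate early transcription factors reach 5.27 for Atf3 with a median of 1.05; the fitted point of Klf2, at 0 in HC, is no bound.

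Across the 26 sums of a region in an area with 20 or more spots, the 8 genes did not move as a single group. Of the 28 pairs 5 had a Pearson r above 0.5 and 11 were below 0, with a median of 0.153. Junb and Ier2 were closest at 0.854, followed by Egr1 with Ier2 (0.659), Junb with Nr4a1 (0.643), Ier2 with Nr4a1 (0.640) and Junb with Egr1 (0.546). Dusp1 had its largest r with Btg2, at 0.264, and was at -0.444 with Fos, the lowest of all pairs, at -0.399 with Junb and at -0.349 with Ier2. These sums share 4 libraries and differ in depth and in the tissues present, and Fos and Fosb rest on few UMIs, so the values are descriptions.

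**Figure D5:**
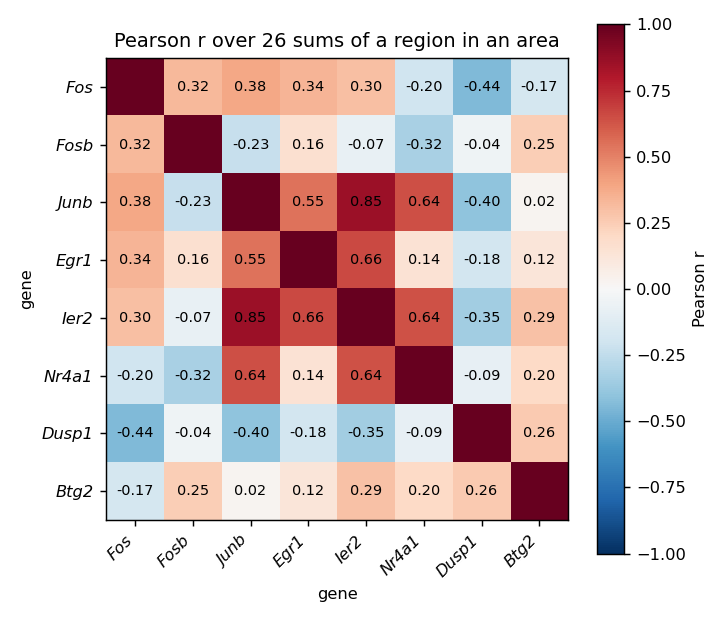
Pearson r of log2 levels for each pair of the 8 genes over 26 sums of a region in an area, from -1 (blue) to 1 (red). Junb, Egr1 and Ier2 form a block, with Nr4a1 joined to Junb and Ier2 but at 0.145 with Egr1, Fos lies between 0.304 and 0.383 with Fosb, Junb, Egr1 and Ier2, and Dusp1 is below 0 with all but Btg2.

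Of 7887 further genes with a mean of 10 CPM or more, those most like the mean of the 8 genes over the same 26 sums were Ext1 (r = 0.883), Clec2g (0.857), Slfn5 (0.839), Slfn2 (0.830), Lrg1 (0.807), Sp140 (0.797), Igfbp5 (0.794), Serpinf1 (0.794), St6galnac2 (0.793) and Rhoj (0.788). Taken singly, Nr4a1 was most like Gldn (0.966), which encodes gliomedin of Schwann cells at nodes of Ranvier, Fxyd6 (0.961) and Srpx (0.949). Junb was most like Islr (0.953) and Ier2 like Furin (0.935). Egr1 was most like Grb10 (0.802), Fos like Zc3h13 (0.826), Btg2 like Sik1 (0.763), Dusp1 like Gnas (0.695) and Fosb like AY172581.17 (0.671). Likeness was thus closest for Nr4a1, Junb and Ier2, the genes with 3331 UMIs or more apart from Dusp1.

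Single spots rich in these genes were few. In all, 58 spots held 20 or more of their UMIs, 3 in HC and 5, 44 and 6 in TN1, TN2 and TN3. Their median depths were 24067, 26665, 51560 and 31695 UMIs in that order. A limit set on UMIs picks deep spots by itself, and the part of depth in the number of TN2 spots was not tested. Of the 44 in TN2, 20 lay in cluster 4 and 20 in connective tissue, and 2 in the ganglion, regions of 347, 109 and 366 spots there. The richest spot of the series was the only TN1 spot of cluster 4, with 80 UMIs of the 8 genes among 20891. It held 25 UMIs of Nr4a1, 15 each of Egr1 and Dusp1, 9 of Ier2, 8 of Junb, 7 of Btg2, 1 of Fosb and 0 of Fos. Its leading genes were Eln, elastin, at 342 times the level of the rest of TN1, and the smooth muscle genes Actg2, Des, Myh11 and Tagln. Without it Egr1 over all TN1 spots went from 12.4 to 11.8 CPM and Nr4a1 from 61.2 to 60.2. The next richest were a pair of blood and bone spots of HC, with 41 and 38 UMIs, led by Slc38a5, Asgr2 and Vwf in the first and by Btg2 itself, Srgn and Cldn5 in the other.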

How the data were processed

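Spatial transcriptomes (Visium, 10x Genomics) of 4 capture areas were analysed, 3 TN and 1 HC. The authors aligned and counted reads with Space Ranger 1.2.0 (file header; STAR is named in the submitters' processing notes) and deposited raw UMI counts per gene and spot in 1 matrix for all areas. No source used here gives the genome build or annotation of the counts. Areas were told apart by the barcode suffix, taken as TN1, TN2 and TN3 for 1 to 3 and HC for 4 from the order of the areas in the series' design text. No source used here states that the matrix was joined in that order, and every value of an area rests on it.

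Spots were clustered on 3000 variable genes less the members (SCTransform, Seurat 5.3.0, 30 principal components, K-means with 10 clusters), and a cluster was named from marker lists when its score led the next by at least 0.25. Marker sets of macrophage, pituitary, endothelium and skeletal muscle led no cluster, and that of satellite glia was not scored for naming. No doublet caller was run. Counts were summed per region and area, where an area had 20 or more spots, then tested by the quasi-likelihood method of edgeR 4.0.16 with TMM scaling, low genes removed by filterByExpr and Benjamini-Hochberg adjustment over all genes, TN against HC without a covariate and regions with the area as a block. The study's own test takes spots as replicates, and sums per area were tested here because spots share their area. Levels are CPM of all UMIs of that region and area. Every script with a test was checked on simulated data.

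Alternatives were DESeq2 1.42.0, DESeq2 size factors, no filter on low counts, each area left out, removal of mitochondrial, hemoglobin and ribosomal protein genes, removal of 86 spots under 500 genes or 1000 UMIs, 8 or 12 clusters, log-normalised clustering and regions from spot marker scores. The comparisons of cluster 3 and of the ganglion injury cluster, the neuron cluster alone and library totals without TMM were chosen after seeing the data.

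The members and gene lists were chosen with earlier results of these data known. Every member was named, and of each further list the genes past the adjusted threshold or, where none was, the 3 with the largest fold among those whose 3 TN areas lay together above or together below HC, as well as the 10 genes most like the members' mean. Of 166 listed symbols 163 were found. Depth was 23546025 to 41335930 UMIs per area.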

Additional observations from a re-analysis of the deposited data

Results flagged for a closer look

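Btg2, the antiproliferative gene, had all 3 TN areas above HC in the ganglion region, by 0.15 ± 0.24 on the log2 scale, and all 3 below HC in the blood and bone region, by -0.99 ± 0.46 (edgeR, adjusted p = 0.855 and 0.99976). The difference between both regions was not tested.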

How the results depend on the processing

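Of 675 values of the 8 genes under alternatives, 598 kept direction and side of the threshold, 37 lost a call, 3 gained one and 37 changed sign. Most of the 675 belong to comparisons without a call, where no call could be lost, so the 598 do not measure how firm the calls were. All 37 losses fell on calls of Junb, Egr1, Ier2, Dusp1 and Btg2. The calls of Nr4a1 in central myelin, cluster 3 and the injury cluster held throughout (log2 from -1.52 to -1.02, 0.66 to 0.91 and 0.58 to 0.77). Depth limited Fos and Fosb, with 239 and 125 UMIs. No paired analysis of TN and HC was possible because HC is a pooled area and the animals it came from are not settled. Regions were compared with the area as a block. Clusterings with 12 groups, log-normalised values or spot marker scores gave no TN against HC value in blood and bone, and cluster 3 and the injury cluster were not rebuilt under them.

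The number of genes called moved as follows, and the cause was not tested. In the ganglion (0) it was 119 in DESeq2, 29 without the filter, 5 with log-normalised clustering, 1 with spot marker scores, 5 with the neuron cluster alone and 0 to 1090 with an area left out. In central myelin (0) it was 4, 1 without the filter and 0 to 10. In blood and bone (3) it was 8, 62 without the filter, 5 with low spots left out and 38 to 397. In cluster 3 (5) it was 46, 166 without the filter and 0 to 484. Over all spots (0) it was 144 and 0 to 2171. Against the ganglion, spot marker scores gave 2306 genes for blood and bone (4247), DESeq2 gave 1723 for cluster 3 (2711) with 1588 to 3128 when an area was left out, and DESeq2 gave 1157 for the injury cluster (2554) with 1410 to 2932.

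Signs changed only for members that did not pass the test. For TN against HC in the ganglion, Ier2 was -0.072 with log-normalised clustering, -0.024 with spot marker scores, -0.24 with the neuron cluster alone and -0.27 to 0.30 with an area left out, and Btg2 was -0.15 and -0.19 with log-normalised clustering and the neuron cluster alone. With an area left out, Ier2 was -0.41 to 0.004 and Dusp1 -0.059 to 0.60 in blood and bone, and Egr1 -0.040 to 0.35 over all spots. In central myelin against the ganglion, Dusp1 was -0.025 with size factors, -0.050 in DESeq2, -0.19 without the filter, -0.040 without mitochondrial, ribosomal and hemoglobin genes, -0.041 with 8 clusters, -0.22 without TMM and -0.17 to 0.17 with an area left out. Btg2 was -0.13 in DESeq2, -0.074 without the filter, -0.30 with spot marker scores, -0.11 without TMM and -0.19 to 0.38 with an area left out. Junb was 0.064 with 12 clusters, 0.22 with the neuron cluster alone and -0.13 to 0.18, and Ier2 was 0.068 with log-normalised clustering, 0.079 with the neuron cluster alone and -0.26 to 0.006. In blood and bone against the ganglion, Nr4a1 was 0.16 with 12 clusters, 0.12 with spot marker scores, 0.21 with the neuron cluster alone and -0.23 to 0.14. In cluster 3, Dusp1 was -0.005 to 0.13 and Btg2 -0.010 to 0.10 with an area left out.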
